A study of Homo sapiens with 6 samples.

Results

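The S100A genes are a family of small calcium-binding proteins, and their transcripts were followed here in human kidney tubular cells with and without TGF-β1. The members were taken by gene name, with earlier results of these data known. They were S100A2, S100A3, S100A4, S100A5, S100A6, S100A10, S100A11, S100A13, S100A14 and S100A16, which are 10 of the 41497 named genes listed per library. HK-2 cells, which derive from the epithelium of the human proximal tubule and were immortalised, were used as wild type (WT) in all 6 libraries. One group of 3 libraries was untreated (control) and the other 3 came from cells given TGF-β1 for 24 h, and no other allele or agent was named for either group. The cells were maintained in DMEM-F12 with serum. The study's general culture methods describe TGF-β experiments as done without serum and at a stated dose, but they do not tie that dose to these libraries or give the serum condition of their controls. HK-2 is a single line, and nothing in the labels says that the libraries of a group came from separate cultures, so p values measure only the spread between these libraries, which may be technical.

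The libraries held 21.9 to 26.9 M counts each. The tubular transcription factor PAX8 was read at 251 ± 13.9 CPM (counts scaled to a common library size) in control and 151 ± 12.1 CPM after TGF-β1 (SD, n = 3). The brush border enzyme GGT1 was at 75.6 ± 7.22 and 50.5 ± 5.90 CPM. Both were lower without overlap, with log2 fold changes of -0.73 and -0.58. The proximal tubule receptor LRP2 and transporter SLC22A6 had no read in any library, and HNF4A, ANPEP and SLC34A1 had 7 reads or fewer per library. Of 17 proximal tubule markers 12 could be tested and 11 were called, 6 higher and 5 lower after TGF-β1, where 44.3% of all genes tested were called, 22.2% higher and 22.1% lower. The 6 fibroblast markers summed to 59.8 to 69.2 CPM in control and 56.8 to 58.1 CPM after TGF-β1, mostly from LUM, and the fibroblast markers PDGFRA and DCN had 5 reads or fewer per library. Of these 6 markers 3 could be tested, of which 2 were lower and 1, PDGFRB, was higher. PDGFRB, a growth factor receptor of pericytes and fibroblasts, was read at 0.443, 0.613 and 0.597 CPM in the controls and at 5.72, 6.25 and 5.40 CPM with TGF-β1, a log2 fold change of 3.38 (adjusted p = 1.07e-07). The 7 leukocyte markers summed to 99.6 to 108 CPM and 85.9 to 112 CPM, mostly from CD68, while AIF1 and CD3E had no read in any library and PTPRC had 2 or fewer. Of 3 tested leukocyte markers 2 were lower and 1, CSF1R, was higher. CSF1R, a receptor best known from macrophages, was read at 4.19 ± 0.18 CPM in the controls and at 24.6 ± 1.68 CPM with TGF-β1 (SD, n = 3), without overlap, a log2 fold change of 2.55 (adjusted p = 4.30e-09). The 5 endothelial markers summed to 0.940 to 1.68 CPM and 0 to 0.095 CPM, mostly from CDH5, which was the 1 marker tested and was lower. The part of these markers in the results below was not tested. In bulk RNA, fewer cells making a transcript and less of it per cell cannot be told apart.

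S100 proteins carry a pair of EF-hand loops that bind calcium, and most work as dimers. On binding calcium, most expose a surface that grips a partner such as an annexin or a myosin, so they act as calcium sensors rather than enzymes. S100A10 is the exception, since its loops no longer bind calcium and it holds annexin A2 permanently. Some members are also exported and act outside the cell. In kidney, S100A4 is best known as fibroblast-specific protein 1, a marker used in studies of epithelial to mesenchymal transition and fibrosis.

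All 10 genes lie on the minus strand of chromosome 1 (hg38) in 2 segments. S100A10 (151982915 to 151993859) and S100A11 (152032506 to 152037004) are 38.6 kb apart. The other 8 begin 1498 kb further on and fill 99.8 kb, from S100A6 at 153534599 to S100A13 at 153634361. The starts of the 4 genes that were called changed are shown here, because each has its own sequence upstream although the genes belong to 1 family. Each run is 250 bases of RefSeq sequence (GRCh38.p14) that ends just before a gene start, read 5′ to 3′ on the minus strand. Capitals mark matches on either strand to 4 motifs. The first was CAGAC, the core of a SMAD site, which reads GTCTG on the other strand. The AP-1 motif searched was TGANTCA. The GC box was searched as GGGCGG, and the TATA box was searched as TATAAA.
S100A4, chr1:153545807-153546056: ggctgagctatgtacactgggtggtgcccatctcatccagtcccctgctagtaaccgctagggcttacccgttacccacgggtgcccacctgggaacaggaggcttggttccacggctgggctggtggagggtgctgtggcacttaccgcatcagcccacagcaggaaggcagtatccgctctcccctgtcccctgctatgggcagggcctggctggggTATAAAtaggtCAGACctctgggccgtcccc
S100A10, chr1:151993860-151994109: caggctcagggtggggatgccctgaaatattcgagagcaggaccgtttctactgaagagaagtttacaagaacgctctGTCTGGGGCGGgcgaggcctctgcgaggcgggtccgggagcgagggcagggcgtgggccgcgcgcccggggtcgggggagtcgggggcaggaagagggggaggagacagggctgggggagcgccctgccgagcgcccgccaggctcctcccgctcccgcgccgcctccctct
S100A11, chr1:152037005-152037254: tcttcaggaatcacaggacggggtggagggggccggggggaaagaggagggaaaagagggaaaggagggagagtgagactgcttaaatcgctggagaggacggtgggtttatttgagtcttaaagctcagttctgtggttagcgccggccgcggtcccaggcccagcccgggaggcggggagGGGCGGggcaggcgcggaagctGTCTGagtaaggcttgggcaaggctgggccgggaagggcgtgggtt
S100A16, first start, chr1:153613138-153613387: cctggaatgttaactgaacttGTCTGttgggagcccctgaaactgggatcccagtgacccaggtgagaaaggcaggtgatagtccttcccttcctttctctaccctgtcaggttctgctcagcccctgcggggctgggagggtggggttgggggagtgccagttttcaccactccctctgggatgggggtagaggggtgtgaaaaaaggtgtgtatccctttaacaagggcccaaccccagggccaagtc
S100A16, second start, chr1:153609356-153609605: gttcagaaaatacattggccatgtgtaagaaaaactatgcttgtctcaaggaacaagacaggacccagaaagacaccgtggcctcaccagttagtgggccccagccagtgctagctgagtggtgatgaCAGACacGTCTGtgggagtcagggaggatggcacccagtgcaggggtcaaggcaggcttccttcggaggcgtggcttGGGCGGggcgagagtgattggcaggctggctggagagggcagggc
S100A4 had a TATAAA beginning 31 bases before its start and a CAGAC 20 bases before it. S100A10 had a CAGAC match 172 bases before its start directly joined to a GGGCGG at 167. S100A11 had GGGCGG at 68 and a CAGAC match at 46. The first start of S100A16 had a CAGAC match at 229, and the second start, 3782 bases inside the gene, had matches at 122 and 115 with a GGGCGG at 45. A CAGAC match was thus present upstream of both genes that rose and both that fell. Among tested members not called, S100A2, S100A5 and S100A13 also had a match at some start, while S100A3 and S100A6 had none. Over the table of 35116 promoters, 38.0% held CAGAC, 6.57% TGANTCA, 42.6% GGGCGG and 10.7% TATAAA in the same window. Of the 15 promoters listed for the 10 members, 9, 3, 6 and 2 held them. A match of letters is a description and not evidence of a bound factor.

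Levels of different genes were compared as TPM, which divides reads by the summed exon length of a gene and scales each library to the same total. That length was 2306 bases in 8 exon blocks for S100A13 and 507 bases in 3 blocks for S100A6. Where the cells make a shorter form, TPM understates the gene, so the order and shares depend on this length. S100A6 was the highest member in control cells, at 2002 ± 90.1 TPM (SD, n = 3). S100A11 followed at 1311 ± 50.7 TPM, S100A10 at 967 ± 59.6 TPM and S100A16 at 262 ± 4.32 TPM. These 4 genes made up 95.8% to 96.1% of the summed TPM of the family in every library. S100A13 (99.4 ± 6.87 TPM) and S100A2 (67.3 ± 4.19 TPM) were in the middle. S100A3 (16.4 ± 2.00 TPM) and S100A4 (10.3 ± 1.82 TPM) were low, and S100A5 (1.01 ± 0.093 TPM) and S100A14 (0.520 ± 0.190 TPM) were barely read. No neighbours in this order overlapped in control cells.

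**Figure D1:**
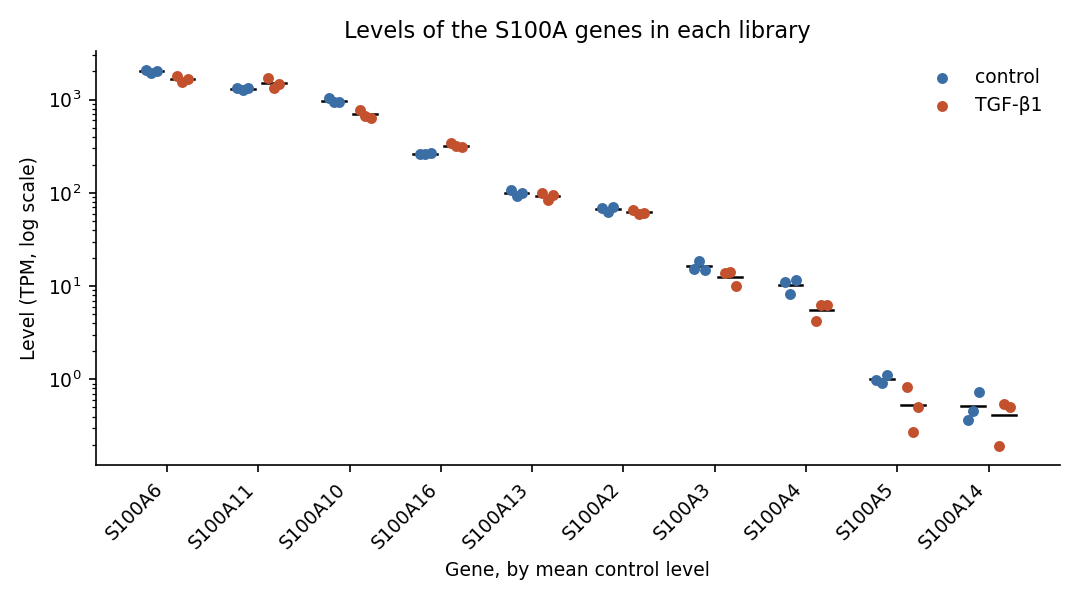
Level of each S100A gene in each library, in TPM on a log axis, with genes ordered by control level, points for libraries, bars for group means and colours for control and TGF-β1. The order runs from S100A6, at 2002 TPM in control, to S100A14, at 0.520 TPM, and the groups lie close together compared with the distance between genes.

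TGF-β1 left the order of the mean levels as it was for 10 of 10 genes. The means became 1671 ± 122 TPM for S100A6, 1500 ± 191 for S100A11, 691 ± 69.4 for S100A10 and 320 ± 16.2 for S100A16. S100A13 was at 93.3 ± 8.01 TPM, S100A2 at 61.7 ± 3.24, S100A3 at 12.6 ± 2.29, S100A4 at 5.60 ± 1.16, S100A5 at 0.535 ± 0.276 and S100A14 at 0.413 ± 0.193. S100A6 and S100A11 no longer separated, since S100A11 reached 1707 TPM in one library while S100A6 was at 1551 TPM in another, and S100A5 overlapped S100A14. Without TGF-β1 replicate 1, 8 of the 10 ranks were the same as in control.

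The summed level of the family was 4936, 4543 and 4731 TPM in control and 4793, 4026 and 4249 TPM after TGF-β1, so the groups overlapped. Within this sum the makeup differed between the groups. S100A11 supplied 27.2%, 27.6% and 28.3% of the family TPM in control and 35.6%, 33.0% and 34.4% after TGF-β1. S100A6 supplied 42.1% to 42.4% and then 37.4% to 39.3%. S100A10 supplied 20.4% ± 0.69 and then 15.9% ± 0.79 (SD, n = 3), and S100A16 5.31% to 5.67% and then 7.05% to 7.81%. None of these 4 shares overlapped between the groups. Shares of 1 sum are tied to each other, and they were given no test.

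The comparison of TGF-β1 with control asked which members changed. S100A16 and S100A11 rose and S100A10 and S100A4 fell, by the edgeR quasi-likelihood F test at a Benjamini-Hochberg adjusted p under 0.05 over 14860 genes. S100A2, S100A3, S100A5, S100A6 and S100A13 did not pass this test, and S100A14 had too few reads to be tested. Thus 4 of 9 tested members were called, beside 44.3% of all genes tested. The 2 members that were higher stand beside 22.2% of all genes and the 2 that were lower beside 22.1%. The share of the family that was called was near this background, so it is not a result about the family. The median log2 fold change of the 9 members was -0.14, against 0.0063 over all genes. No member changed 2-fold, which 3.68% of genes did upward and 5.38% downward at the same threshold. The values below are CPM, scaled by TMM, and they compare libraries for 1 gene. TMM assumes that most genes do not differ. Scaling by total counts alone lowered the median of all genes by 0.11 on the log2 scale. It called 1 member higher and 3 lower, beside 2134 higher and 4590 lower of all genes tested.

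**Figure D2:**
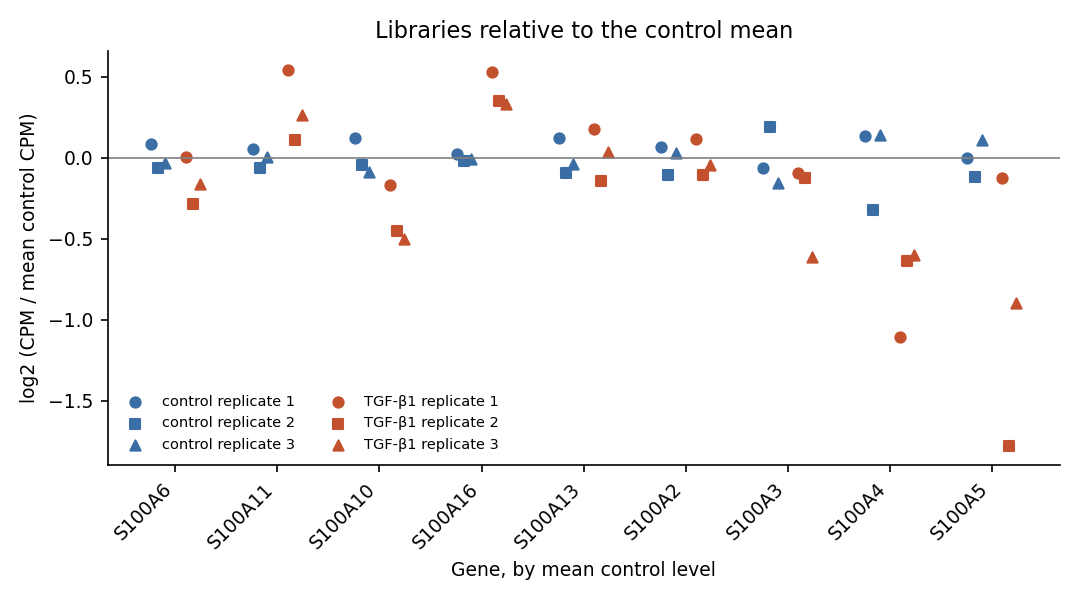
CPM of each tested S100A gene in each library as a log2 ratio to its mean in control cells, with circles, squares and triangles for replicates 1, 2 and 3. The 3 TGF-β1 libraries lie above all controls for S100A16 (164 to 189 CPM against 129 to 133) and S100A11, and below all of them for S100A10, S100A4 and S100A5.

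S100A16, a widely made member that can pair with S100A14, had the smallest adjusted p of the family. It was read at 133, 129 and 130 CPM in control and at 189, 166 and 164 CPM after TGF-β1. The controls lay within a few CPM of each other and every TGF-β1 library lay above them. The log2 fold change was 0.41 ± 0.062 (SE, 95% interval 0.27 to 0.55, adjusted p = 0.000324), or 1.33-fold. It was called in all 15 alternative settings, between 0.30 and 0.44. S100A14, an epithelial member, had 3, 4 and 6 reads in control and 2, 5 and 4 after TGF-β1. The ratio of its reads, corrected for depth, was 0.778, with an exact 95% interval of 0.316 to 1.88 that covers counting error only, so neither a rise nor a fall was detectable at this depth. The log2 ratio of S100A14 to S100A16 in reads per kilobase averaged -8.87 in control and -9.53 after TGF-β1.

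S100A10, also called p11, forms a complex with annexin A2 that anchors membrane proteins and binds plasminogen at the cell surface. Its CPM was 213, 189 and 184 in the controls, and with TGF-β1 it was 174, 143 and 138. All control libraries were above all TGF-β1 libraries, and replicate 1 was the highest in both groups. The log2 fold change was -0.36 ± 0.092 (SE, 95% interval -0.57 to -0.16, adjusted p = 0.0103), or 0.777 times the control level. It was called in all 15 alternative settings, between -0.49 and -0.30.

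S100A11, which binds annexin A1 and takes part in membrane repair and growth control, moved the other way. Its CPM was 231, 212 and 222 in the controls, and with TGF-β1 it was 324, 239 and 266. The groups did not overlap, but TGF-β1 replicate 2 lay only just above control replicate 1, and TGF-β1 replicate 1 lay far above the rest. The log2 fold change was 0.32 ± 0.10 (SE, 95% interval 0.087 to 0.55, adjusted p = 0.0319), or 1.25-fold. The call was lost with scaling by total counts (0.21, adjusted p = 0.142) and without control replicate 1 (adjusted p = 0.0595), replicate 2 (0.101) or replicate 3 (0.0904), and also without TGF-β1 replicate 3 (0.0641). Without TGF-β1 replicate 1 the estimate shrank to 0.18 and stayed a call (adjusted p = 0.00992). The GENCODE annotation names 2 processed pseudogenes of S100A11 on chromosome 7, at 35169224 to 35169535 and 103262000 to 103262311, which were not analysed here, and how reads shared with them were counted was not given.

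S100A6, or calcyclin, binds annexin A11 and the ubiquitin ligase adaptor CACYBP and is associated with proliferating cells. Its CPM was 325, 292 and 299 in the controls, and with TGF-β1 it was 306, 251 and 273. The groups overlapped in CPM. In TPM they did not, at 1914 to 2094 in the controls and 1551 to 1794 with TGF-β1. The log2 fold change of the counts was -0.14 ± 0.075 (SE, 95% interval -0.31 to 0.027, adjusted p = 0.158). S100A6 became a call with scaling by total counts (-0.25, adjusted p = 0.0220) and without TGF-β1 replicate 1 (-0.23, adjusted p = 0.00214). S100A6 was also called with a trend on gene length removed from each library (-0.15, adjusted p = 0.0269). This setting was added after the data were seen, and the trend was fitted to each library's deviation from the mean of all libraries.

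S100A4 binds non-muscle myosin IIA and is known for its role in cell motility. The gene was read at 1.91, 1.39 and 1.92 CPM in control, from 43, 34 and 45 reads, and at 0.807, 1.12 and 1.15 CPM after TGF-β1, from 21, 27 and 24 reads. Every TGF-β1 library was below every control. The log2 fold change was -0.77 ± 0.23 (SE, 95% interval -1.27 to -0.26, adjusted p = 0.0185), or 0.588 times the control level. The call was lost with DESeq2 (-0.77, adjusted p = 0.0852) and without control replicate 1 (-0.69, adjusted p = 0.0686) or control replicate 3 (-0.69, adjusted p = 0.0692). Its exons share 54 bases, 9.61% of their length, with LOC101928034 on the opposite strand. That gene had 3 to 8 reads per library, and the strand setting of the counting was not given in the sources used here.

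**Figure D3:**
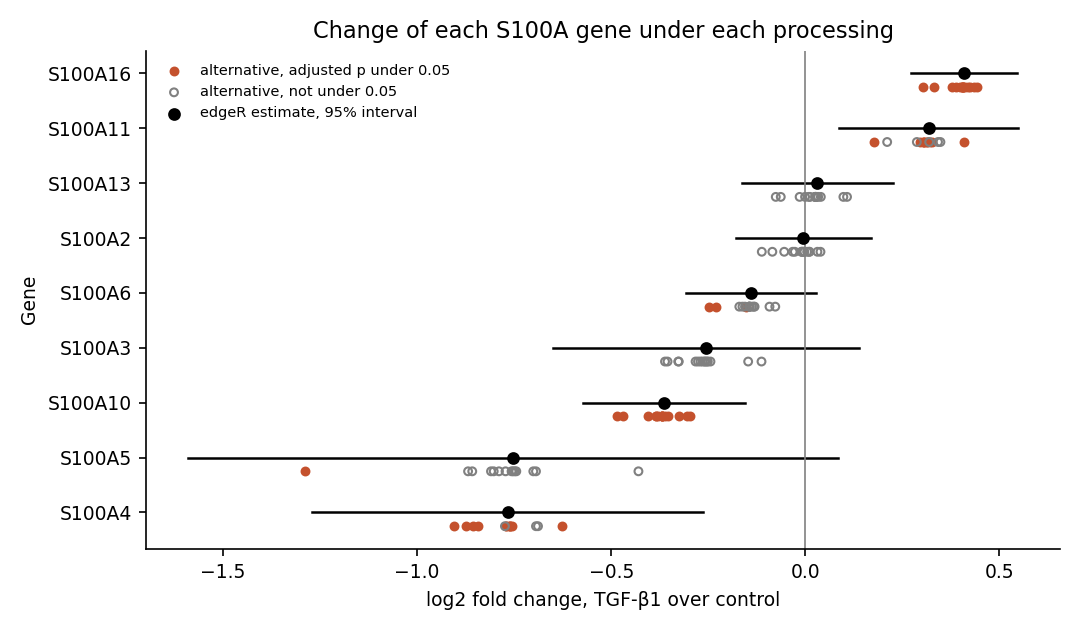
Log2 fold change of TGF-β1 over control for the 9 tested S100A genes, with black points for the edgeR estimate, lines for its 95% interval and small points below for the alternative settings, filled where the adjusted p was under 0.05. S100A16 and S100A10 are filled in all 15 settings, while S100A11 is filled in 10 of 15 and S100A4 in 11 of 14.

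S100A2, a member known from epithelia, was read at 23.3, 20.7 and 22.7 CPM in control and 24.2, 20.7 and 21.6 CPM after TGF-β1. The groups lay on top of each other, and the log2 fold change was -0.0049 ± 0.079 (SE, adjusted p = 0.968). Its 95% interval ran from -0.18 to 0.17. S100A13, which helps FGF1 and IL1A leave the cell without a signal peptide, was read at 75.1, 64.5 and 67.1 CPM and then at 78.0, 62.3 and 70.7 CPM. These groups also overlapped throughout, with a log2 fold change of 0.03 ± 0.087 (SE, 95% interval -0.16 to 0.22, adjusted p = 0.802). Exons of S100A13 share 278 bases, 12.1% of their length, with CHTOP on the opposite strand, and 36 bases with S100A1. CHTOP had 1567 to 2168 reads per library and S100A13 1480 to 2032, and since the strand setting of the counting was not given, reads of these shared bases cannot be told apart.

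S100A3, best known from the cuticle of the hair, was read at 3.50, 4.17 and 3.28 CPM in control and 3.42, 3.35 and 2.39 CPM after TGF-β1. Exons of S100A3 share 70 bases, 9.43% of their length, with LOC101928034 on the opposite strand, with the same limit. Only TGF-β1 replicate 3 lay below the range of the controls, and the log2 fold change was -0.25 ± 0.18 (SE, 95% interval -0.65 to 0.14, adjusted p = 0.275). S100A5, a member of which little is known in kidney, had 16, 16 and 18 reads in control and 17, 5 and 8 after TGF-β1. In CPM these were 0.709, 0.654 and 0.767, and then 0.653, 0.207 and 0.382, so the groups did not overlap but TGF-β1 replicate 1 nearly touched control replicate 2. The log2 fold change was -0.75 ± 0.38 (SE, 95% interval -1.59 to 0.085, adjusted p = 0.132). S100A5 was called without TGF-β1 replicate 1 (-1.29, adjusted p = 0.0186). Counting S100A5, 5 of 9 tested members had CPM ranges that did not overlap, beside 55.6% of all genes. They were 2 higher, beside 27.9%, and 3 lower, beside 27.7%.

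Libraries of a group differed across the family as a whole. TGF-β1 replicate 1 was the highest TGF-β1 library for 8 of the 9 tested members, with S100A4 lowest there, and TGF-β1 replicate 2 was the lowest for 5. Among the controls, replicate 1 was the highest for 6 of 9 members and the lowest for 0, and replicate 2 was the lowest for 7. The median log2 deviation of the 9 members from their group mean was 0.15 in that library, against -0.093 and -0.033 in the other TGF-β1 libraries and between -0.062 and 0.068 in the controls. The longest exon sum among the members is 2348 bases, and the 3543 tested genes no longer than that had a median deviation of 0.073 in TGF-β1 replicate 1. The 2609 genes of 8000 bases or more had -0.11 there. The part of gene length or of this library in the results was not tested. Without TGF-β1 replicate 1 the count of called members was 6 in place of 4, with S100A5 and S100A6 added. That fit also called more of all genes, 3545 higher and 3651 lower of 15106, against 3294 and 3288 of 14860 with all libraries. Without control replicate 1 or control replicate 3 the count of called members was 2, namely S100A10 and S100A16. Fewer of all genes were called there as well. They were 2807 higher and 2787 lower of 15139 without control replicate 1, and 2762 and 2824 of 15057 without control replicate 3.

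Members were next set against a partner within the same library, as the log2 ratio of reads per kilobase. With 3 libraries against 3 the exact permutation test cannot give a p below 0.1, so none of the 7 pairs could pass. The ratio of S100A10 to ANXA2 was 1.07, 0.84 and 0.88 in the controls, and 0.68, 0.50 and 0.45 with TGF-β1. Every TGF-β1 library was lower, by a mean of 0.39 (exact p = 0.1, adjusted p = 0.175). ANXA2 itself was read at 802 ± 21.4 and 812 ± 34.1 CPM (SD, n = 3), and its log2 fold change was 0.02 ± 0.055 (SE, adjusted p = 0.814).

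The ratio of S100A11 to ANXA1 moved most among the 7 pairs, from 3.03, 2.86 and 2.87 in control to 4.25, 4.03 and 4.06 after TGF-β1. The groups were far apart, with a difference of 1.19 (exact p = 0.1, adjusted p = 0.175), which took the linear ratio from 7.58 to 17.3. ANXA1, a phospholipid-binding protein with anti-inflammatory actions, fell from 86.4 ± 3.07 to 46.8 ± 3.52 CPM (SD, n = 3), a log2 fold change of -0.88 ± 0.066 (SE, adjusted p = 1.48e-06).

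**Figure D4:**
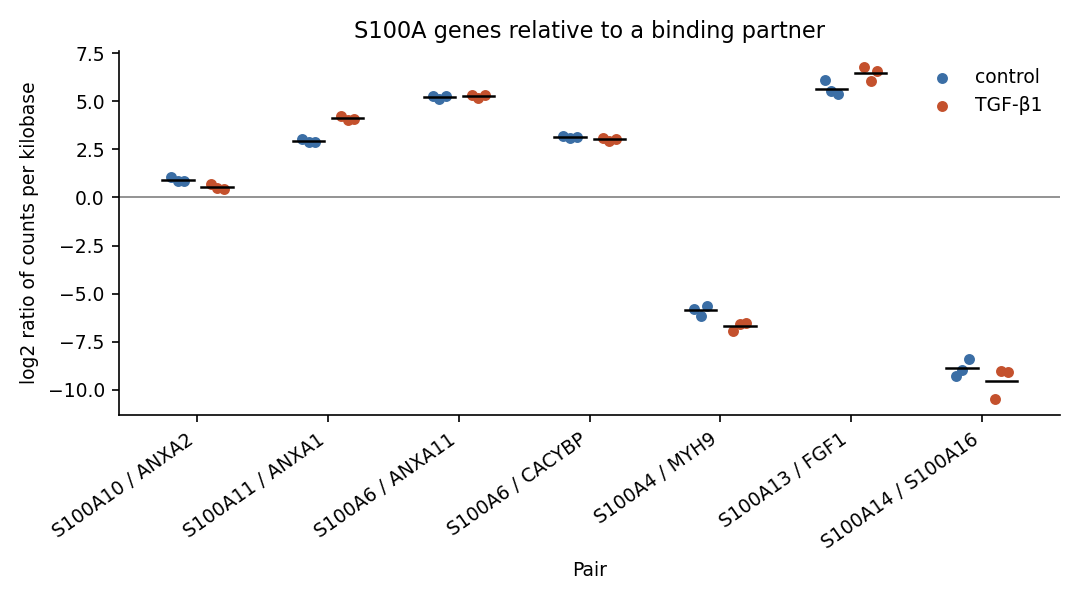
Log2 ratio of reads per kilobase of an S100A gene to a binding partner in the same library, for 7 pairs, with points for libraries and bars for group means. The ratio of S100A11 to ANXA1 moves from a mean of 2.92 in control to 4.11 after TGF-β1, and that of S100A6 to ANXA11 stays between 5.13 and 5.33 in all 6 libraries.

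For S100A4 to MYH9, the heavy chain of non-muscle myosin IIA, the ratio was -5.85 ± 0.27 in control and -6.68 ± 0.23 after TGF-β1 (SD, n = 3), without overlap (exact p = 0.1). MYH9 was at 1329 ± 64.0 and 1403 ± 53.8 CPM (SD, n = 3) and did not pass the test (adjusted p = 0.309). The ratio of S100A6 to CACYBP differed by -0.13 without overlap (exact p = 0.1), and that of S100A6 to ANXA11 by 0.04 with overlap (exact p = 0.5). The difference for S100A13 to FGF1 was 0.80 with overlap (exact p = 0.2), and for S100A14 to S100A16 it was -0.66 with overlap (exact p = 0.4). FGF1 fell from 2.89 ± 0.55 to 1.67 ± 0.27 CPM (SD, n = 3), by 0.79 on the log2 scale (adjusted p = 0.00903), while CACYBP did not pass the test (-0.0090, adjusted p = 0.913).

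Annexins, which bind membranes in the presence of calcium and include several S100 partners, were called in 10 of 13 cases, 3 higher and 7 lower. Of all genes 44.3% were called, 22.2% higher and 22.1% lower. The median log2 fold change of the annexins was -0.18 and their range -1.61 to 2.26. Without control replicate 2 they were 3 higher and 4 lower, beside 2646 higher and 2687 lower of 15045 genes in that fit. ANXA8L1 rose from 1.78 ± 0.18 to 8.54 ± 0.64 CPM (SD, n = 3), a log2 fold change of 2.26. It is a near-identical copy of ANXA8, and its reads may be split between them. ANXA8 was also called higher (1.37, adjusted p = 0.000423), so the 3 higher annexins include both copies. ANXA6 rose by 0.26 on the log2 scale, a call that was lost with scaling by total counts (0.15, adjusted p = 0.0622). ANXA3 fell by 1.05 and ANXA4 by 0.42. ANXA11 was at -0.18 (adjusted p = 0.0343), a call that was lost with the length trend removed (-0.12, adjusted p = 0.269) and without control replicate 1 (adjusted p = 0.116), control replicate 2 (0.138), TGF-β1 replicate 2 (0.106) or TGF-β1 replicate 3 (0.122).

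Of 20 other genes whose proteins bind, carry or receive S100 proteins, 15 could be tested and 10 were called, 6 higher and 4 lower, with a median log2 fold change of 0.034. Over all genes 44.3% were called, 22.2% higher and 22.1% lower. Without control replicate 2 the list had 3 higher and 4 lower, beside 2646 higher and 2687 lower of 15045 genes in that fit. AHNAK, a giant scaffold protein held at the membrane by S100A10 and annexin A2, was read at 2094, 2074 and 2159 CPM in control and 268, 502 and 505 CPM after TGF-β1. Every TGF-β1 library was far below the controls, and AHNAK fell by 2.31 ± 0.29 on the log2 scale (SE, adjusted p = 0.00336). PLAT, the tissue plasminogen activator, fell by 1.86 from 70.4 ± 1.15 to 19.4 ± 0.99 CPM (SD, n = 3). KCNK3, a potassium channel whose traffic depends on S100A10, rose by 1.68 from 20.2 ± 0.77 to 64.6 ± 2.22 CPM (SD, n = 3). SYT1, which takes part in FGF1 export with S100A13, rose by 1.13 from 23.9 ± 1.88 to 52.4 ± 1.04 CPM (SD, n = 3). DLC1, a tumour suppressor protein that S100A10 binds, was higher by 1.24 (adjusted p = 0.0243). DLC1 is listed under 2 entries, and with these summed it was higher by 1.57 (adjusted p = 0.00347). The call was lost with all genes with a count kept in the test (1.25, adjusted p = 0.0940). It was also lost without control replicate 2 (1.09, adjusted p = 0.0877). The same held without TGF-β1 replicate 1 (1.34, adjusted p = 0.0782), replicate 2 (1.21, adjusted p = 0.0717) or replicate 3 (1.15, adjusted p = 0.0783).

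Among 40 EF-hand genes outside the S100 family, 32 could be tested and 15 were called, 9 higher and 6 lower, which became 6 higher and 10 lower with scaling by total counts. This share of 46.9% was near the 44.3% of all genes, 22.2% higher and 22.1% lower. Scaling by total counts called 2134 of all genes higher and 4590 lower. Their median log2 fold change was -0.0027 and their range -0.95 to 0.85. SPARC, a matricellular collagen-binding protein, rose by 0.85, from 1243 ± 50.2 to 2243 ± 51.6 CPM (SD, n = 3). EFHD1, a mitochondrial calcium sensor, rose by 0.60 and NCS1, a neuronal calcium sensor, by 0.51. EFHD2 fell by 0.84, HPCAL1 by 0.52 and GCA by 0.32.

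Of the other S100 genes, only S100A1 had enough reads to be tested, with 98 reads in the 3 control libraries and 87 after TGF-β1 (log2 fold change -0.19 ± 0.24, adjusted p = 0.552). Among these genes 0 were called by edgeR and 0 had an unadjusted p under 0.05. S100A7, S100A7A, S100A8, S100B and S100Z had 0 reads in all 6 libraries, which allows up to 0.044 CPM over the control libraries and 0.041 CPM over the TGF-β1 libraries at 3 counts. S100A9, the partner of S100A8 in calprotectin, was found by 4 reads in the controls and by 0 with TGF-β1, S100G had 3 and 1, S100P 1 and 1, and S100A12 0 and 1.

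The direction of change varied along the chromosome. S100A10 fell and S100A11, 38.6 kb away, rose, and the 2 other tested genes within 100 kb of this pair were not called. Of these, LOC105371441, whose span overlaps that of S100A10, was at -0.36 ± 0.25 (SE, adjusted p = 0.275). THEM4 was at 0.11 ± 0.069 (SE, adjusted p = 0.228). In the longer segment S100A6, S100A5, S100A4 and S100A3 lie side by side and had log2 fold changes from -0.77 to -0.14, of which only that of S100A4 passed the test. S100A2 and S100A13 were near 0 and S100A16 rose between them. Of the 6 other tested genes within 100 kb, 2 were higher (ILF2 and CHTOP) and 2 lower (SNAPIN and NPR1). Of all genes tested 44.3% were called, 22.2% higher and 22.1% lower, and the order along the chromosome was not tested.

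**Figure D5:**
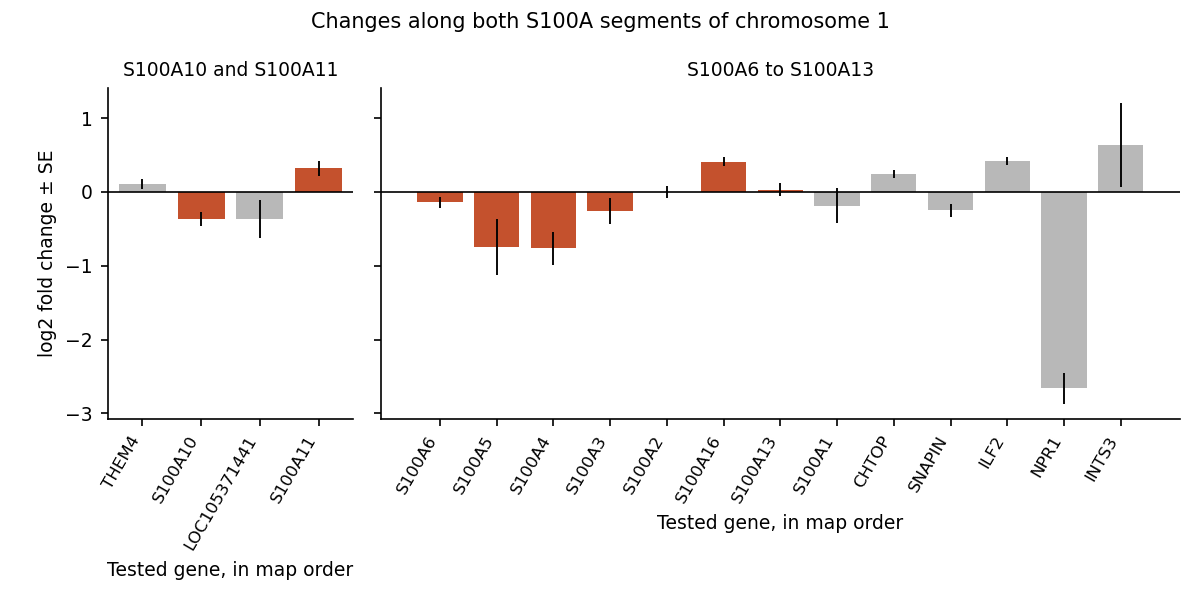
Log2 fold change of TGF-β1 over control, with its standard error, for tested genes within 100 kb of the S100A genes in their order on chromosome 1, with S100A members in orange and other genes in grey. S100A10 is at -0.36 and S100A11 at 0.32, S100A16 is at 0.41 between S100A2 and S100A13, and NPR1 is the lowest at -2.66.

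Over a wider list of 21 genes beside the family on chromosome 1, many of them genes of the skin barrier, 11 could be tested and 5 were called, 2 higher and 3 lower, a share of 45.5% that was near the 44.3% of all genes. With scaling by total counts this became 1 higher and 5 lower, and with genes of a mean of at least 50 counts it was 3 called. Those settings called 2134 higher and 4590 lower over all genes, and 2788 higher and 2959 lower of 11979. The log2 fold changes of the 11 tested genes ran from -3.82 in FLG to 0.63, with a median of 0.11. FLG had 24, 34 and 31 reads in control and 1, 4 and 1 after TGF-β1 (edgeR adjusted p = 3.25e-05). ILF2, an RNA-binding protein, rose by 0.42 on the log2 scale. CHTOP, whose exons overlap S100A13, was higher by 0.24 (adjusted p = 0.00343), a call that was lost with scaling by total counts (0.13, adjusted p = 0.0592). SNAPIN was at -0.25 (adjusted p = 0.0309), a call that was lost with DESeq2 (adjusted p = 0.0525) and without control replicate 1 (0.0682), control replicate 2 (0.0541), control replicate 3 (0.116), TGF-β1 replicate 2 (0.12) or TGF-β1 replicate 3 (0.0864).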

How the data were processed

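RNA of HK-2 cells, 3 control and 3 TGF-β1 libraries, was captured on oligo(dT), primed with random hexamers and sequenced as paired reads. Reads with adapters or of low quality were removed by the authors. The submitters' processing notes list CASAVA, featureCounts 2.0.1, DESeq2 1.16.1 and hg38. The aligner and the strand setting of the counting were not given in the sources used here. The deposited tables hold raw counts per gene, which were tested. They also hold TPM and FPKM, computed by the authors from counts and exon lengths, and FPKM was not used further. TPM recomputed from the counts differed from the deposited TPM by at most 3.57e-06. Of 42095 entries per table, 598 had no gene name. These held 0.396% to 0.464% of counts and were left out of tests and library sizes.

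Genes were kept with filterByExpr (minimum count 10) and compared by the edgeR 4.0.16 quasi-likelihood F test with TMM scaling, two-sided, with Benjamini-Hochberg adjustment over all 14860 genes tested. Calls used an adjusted p under 0.05. The method recovered seeded 2-fold changes of well-read genes in counts simulated with the same spread for all genes. This does not test changes as small as those of the members or genes with few reads. Ratios to a partner used counts per kilobase with a pseudocount of 0.5 and a two-sided exact permutation test, enumerated directly in Python. Alternatives were DESeq2 1.42.0, limma 3.58.1 with voom, other scalings and filters, a block for the replicate number, and fits without each library in turn. The members and gene lists were chosen with earlier results of these data known. Named were all members, the partner of each pair and, from each other list, the called genes with up to 3 of the largest rises and falls at a mean of at least 5 CPM. 1 gene under this rule is not reported here. NPR1, PDGFRB, CSF1R and the genes listed with few reads were named outside this rule after their values were seen. Intervals on reads cover counting error only. Software was R 4.3.3, Python 3.11.15, pandas 2.3.3 and scipy 1.17.1.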

Additional observations from a re-analysis of the deposited data

How the results depend on the processing

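S100A10 and S100A16 were called in all 15 alternative settings run for them. No value given for a comparison or a named gene changed sign past the threshold in any setting. The count of called S100A members was 3 with DESeq2, 3 with genes of a mean of at least 50 counts, 5 with the length trend removed (a setting chosen after seeing the data) and 4 with limma-voom, RLE scaling, total counts, all genes with a count or entries of a name summed. Leaving out 1 library at a time gave 2 to 6. Calls over all genes moved too, with 2917 higher and 2867 lower under DESeq2. They were 2788 and 2959 of 11979 genes at a mean of at least 50 counts, and 3801 and 3455 with the length trend removed. With 1 library left out they ran from 2646 to 3545 higher and from 2687 to 3651 lower. The count for the genes beside the family was 3 in place of 5 with the filter at a mean of 50 counts, which tests fewer genes, and the same filter removed S100A4 and S100A5 from the test. The difference in the ratio of S100A6 to ANXA11 ran from -0.014 to 0.087 when 1 library was left out, and was -0.014 without control replicate 2. The cause was not tested. Over all genes, scaling by total counts gave 2134 higher and 4590 lower, against 3294 and 3288 with TMM. Among single named genes, 8 calls were lost and 2 gained over settings other than leaving out a library, and 19 were lost and 2 gained when 1 was left out.

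Groups share replicate numbers in the labels, but same-numbered libraries deviated together with correlations of only 0.11, -0.014 and 0.093, and not every library was closest to its own number, so the numbers were not taken as pairs. With the replicate number as a block, 4 S100A members were called, as without it, and over all genes 3396 were higher and 3394 lower. The edgeR adjusted p fell under the block from 0.0103 to 0.000236 for S100A10 and from 0.0319 to 0.00306 for S100A11. For S100A6 it fell from 0.158 to 0.0530, still not a call, and for S100A4 it rose from 0.0185 to 0.0245. Of the genes named, DLC1 lost its call under the block (1.31, adjusted p = 0.0896). Counts limit S100A14, with 13 and 11 reads per group, and S100A4 and S100A5, whose values rest on 5 to 45 reads per library.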
